A study of Homo sapiens with 9 samples.

Results

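NUPR1 and 8 genes of the ATF4 stress response (ATF4, DDIT3, DDIT4, TRIB3, SESN2, ASNS, PSAT1 and CHAC1) were followed across the 3 groups of cells. They were represented by 11 probes, every non-control probe annotated with a RefSeq transcript of one of the 9 genes, of the 50599 probes and 21743 named genes on the array. CHAC1 and PSAT1 had 2 probes each, and each other gene had 1 probe. The set was built around NUPR1 because NUPR1 stood among the largest increases of OSK-A549-Colony cells over OSK-A549-SN cells, so every value of that comparison is a description without a test.

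RNA was measured on 9 single-colour Agilent arrays, 3 for each group, with RNA taken from separate transduction experiments per the study's methods. Parental A549, a human lung adenocarcinoma line without transduced factors, was sampled at passages 98, 98 and 99. Both other groups were A549 cells carrying retroviral OCT3/4, SOX2 and KLF4, sampled at later passages, and the labels name no empty-vector control. OSK-A549-Colony cells formed the colonies, and OSK-A549-SN cells were the spindle-shaped cells around them that came off first in trypsin. Transduction and passage cannot be told apart in any comparison with parental A549, and the colony and SN samples were mixtures of cells separated by adhesion.

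ATF4 is a transcription factor made when kinases phosphorylate the translation factor eIF2, for example during amino acid shortage or stress in the endoplasmic reticulum. Under those conditions the ATF4 mRNA is translated more efficiently, so that ATF4 protein can rise without a matching rise of its mRNA, and arrays read only the mRNA. ATF4 protein acts with partners such as DDIT3 on genes for amino acid uptake, amino acid synthesis and tRNA charging, and on genes that damp the response. NUPR1 is a small chromatin-associated protein whose gene is induced by ATF4 during stress.

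RefSeq promoters were available for 8 of the 9 genes (assembly GRCh38.p14, from 250 bases before to 50 bases after the transcription start, 300 bases in all). A core of the composite element that ATF4 binds with C/EBP proteins, TGATGNAA on either strand (TTNCATCA in reverse), was found in 2 of the 8. It was present in 4.46% of the 27305 genes with a promoter and in 3.62% of the 35116 promoters. Both promoters with a match are shown, since ASNS and CHAC1 were also among the genes with higher signal in colony cells, with the matched bases in capitals. In ASNS (chr7:97872359-97872658, minus strand) the match began 68 bases before the start, and in CHAC1 (chr15:40953221-40953520, plus strand) it began 209 bases before the start and ran in reverse.
ASNS: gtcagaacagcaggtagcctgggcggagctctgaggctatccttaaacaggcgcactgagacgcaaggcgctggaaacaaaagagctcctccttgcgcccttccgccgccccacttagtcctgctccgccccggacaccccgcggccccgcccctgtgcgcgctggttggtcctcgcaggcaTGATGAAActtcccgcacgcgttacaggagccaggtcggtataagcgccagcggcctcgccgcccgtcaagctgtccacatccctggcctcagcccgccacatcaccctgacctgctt
CHAC1: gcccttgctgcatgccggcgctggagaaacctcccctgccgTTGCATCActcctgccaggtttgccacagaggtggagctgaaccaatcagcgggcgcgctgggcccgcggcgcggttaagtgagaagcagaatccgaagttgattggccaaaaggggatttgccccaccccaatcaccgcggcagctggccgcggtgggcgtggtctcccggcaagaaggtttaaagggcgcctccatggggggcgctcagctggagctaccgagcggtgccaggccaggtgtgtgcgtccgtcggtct
The windows of ATF4, DDIT3, DDIT4, TRIB3, SESN2 and PSAT1 did not hold these letters, which says nothing about sites outside these windows.

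Array values are given on the log2 scale as intensity relative to the 75th percentile of the same array, so that 0 is the 75th percentile, and they are compared between arrays for 1 probe at a time. In the comparisons with parental A549, called means more than 2-fold apart with a limma p, adjusted by Benjamini and Hochberg's method over all probes tested, of less than 0.05. The 75th percentile lay between 217.5 and 270.6 intensity units, and no spot was saturated. Replicates correlated with r between 0.983 and 0.997 within groups, and the median SD of a probe was 0.21 in parental A549, 0.09 in colony cells and 0.16 in SN cells. OSK-A549-SN replicate 3 was the only array on slide 2. All 7 epithelial markers were well above background in each group. In colony cells against parental A549 their median difference was −0.24, with 4 of 7 below 0, CDH1 at −0.996 (limma adjusted p = 0.0318, just under 2-fold) and KRT19 at 1.18 (adjusted p = 0.0625). The summed intensity of 7 mesenchymal markers was 39274 to 47036 in parental A549, 55584 to 55818 in colony cells and 53493 to 66039 in SN cells, most of it VIM. In colony cells 5 of the 7 were above 0, and none was called. The median of 0.63 was COL1A1, well above background on 1 colony and 1 parental array. SNAI2, also above 0, was well above background on 1 colony and 0 parental arrays. ZEB1 read 1.09, CDH2 0.74 and VIM 0.41, each higher without overlap, and ACTA2 read −1.30, lower without overlap. Without parental replicate 3 ZEB1 read 0.71 and ACTA2 −0.87. In SN cells against parental A549, the mesenchymal median of 0.36 was SNAI2, well above background on 2 SN and 0 parental arrays. The epithelial median there was −0.08, again without a call in either list. There CDH1 (−0.83) and FN1 (−1.33) were lower without overlap, and ZEB1 (0.72, or 0.33 without parental replicate 3), CDH2 (0.69) and VIM (0.49) were higher without overlap. Between colony and SN cells the epithelial median was −0.09. The mesenchymal median was 0.30, again COL1A1, well above background on 1 array of each group. KRT19 (1.22) and CLDN4 (0.79) were higher in colony than in SN cells without overlap, and KRT8 (−0.27) and ACTA2 (−0.81) lower. The sum of 6 leukocyte and endothelial markers was 310 to 359 in parental A549, 525 to 607 in colony cells and 543 to 662 in SN cells, most of it CD68, which was called higher in colony cells (1.04, adjusted p = 0.0272). PTPRC read −0.57 there, and CD3E was well above background on 0 of 3 colony arrays. In a bulk RNA sample, a change in the number of expressing cells and a change in RNA per cell cannot be told apart. The part that cell composition has in the results was not tested.

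Among the regulators, NUPR1 signal was high on the colony arrays and low on the SN arrays, with parental A549 in between. NUPR1 read 1.39, 1.56 and 1.76 in parental A549, 2.65, 3.34 and 4.17 in OSK-A549-Colony, and 0.29, 0.89 and 0.82 in OSK-A549-SN. The groups did not overlap in any pairing, and the colony replicates were the most spread (SD 0.76, against 0.19 in parental A549 and 0.33 in SN). The colony mean exceeded the SN mean by 2.72 (SE 0.41), a 6.58-fold difference. Among 14308 named genes well above background on all 6 of those arrays this was the largest increase, genes dim on any of them not being ranked, and the next were ADH1C with 2.70, TCN1 with 2.19 and FMO5 with 1.96. Without SN replicate 3 the NUPR1 difference was 2.80, and without colony replicate 3, the highest array, it was 2.33. Within replicate numbers 1, 2 and 3, which share a passage between colony and SN cells, it was 2.36, 2.45 and 3.34.

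Against parental A549, NUPR1 was higher by 1.81 (SE 0.39) in colony cells, a 3.52-fold difference. NUPR1 had been taken from probes already called in that comparison, so this value too is a description. In SN cells NUPR1 lay 0.90 below parental A549 (SE 0.21, limma adjusted p = 0.0920), on every array below all parental arrays but short of the call. Across 14 alternative settings the SN difference ran from −1.01 to −0.72, with a limma adjusted p from 0.0271 to 0.247. The SN arrays took part in the choice of NUPR1, so these SN values and their p are a description as well.

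ATF4 mRNA was not called in either comparison with parental A549. The ATF4 probe read 7.47, 7.53 and 7.70 in parental A549, 7.65, 7.60 and 7.83 in colony cells, and 7.57, 7.69 and 7.32 in SN cells. The 3 groups overlapped. The colony difference from parental A549 was 0.13, with a 95% interval from −0.16 to 0.42 (limma adjusted p = 0.496), and this interval does not reach a 2-fold change in either direction. The SN difference was −0.04, with an interval from −0.42 to 0.33 (adjusted p = 0.890).

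DDIT3, also called CHOP, encodes a partner of ATF4 that acts in prolonged endoplasmic reticulum stress. It read −0.77, −0.83 and −0.74 in parental A549, −0.21, −0.59 and 0.11 in colony cells, and −1.11, −1.05 and −1.35 in SN cells. As with NUPR1, every colony array lay above and every SN array below all parental arrays. Neither difference from parental A549 was called: it was 0.55 in colony cells (SE 0.19, limma adjusted p = 0.123) and −0.39 in SN cells (SE 0.14, adjusted p = 0.185). The colony mean exceeded the SN mean by 0.94 (SE 0.20).

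**Figure D1:**
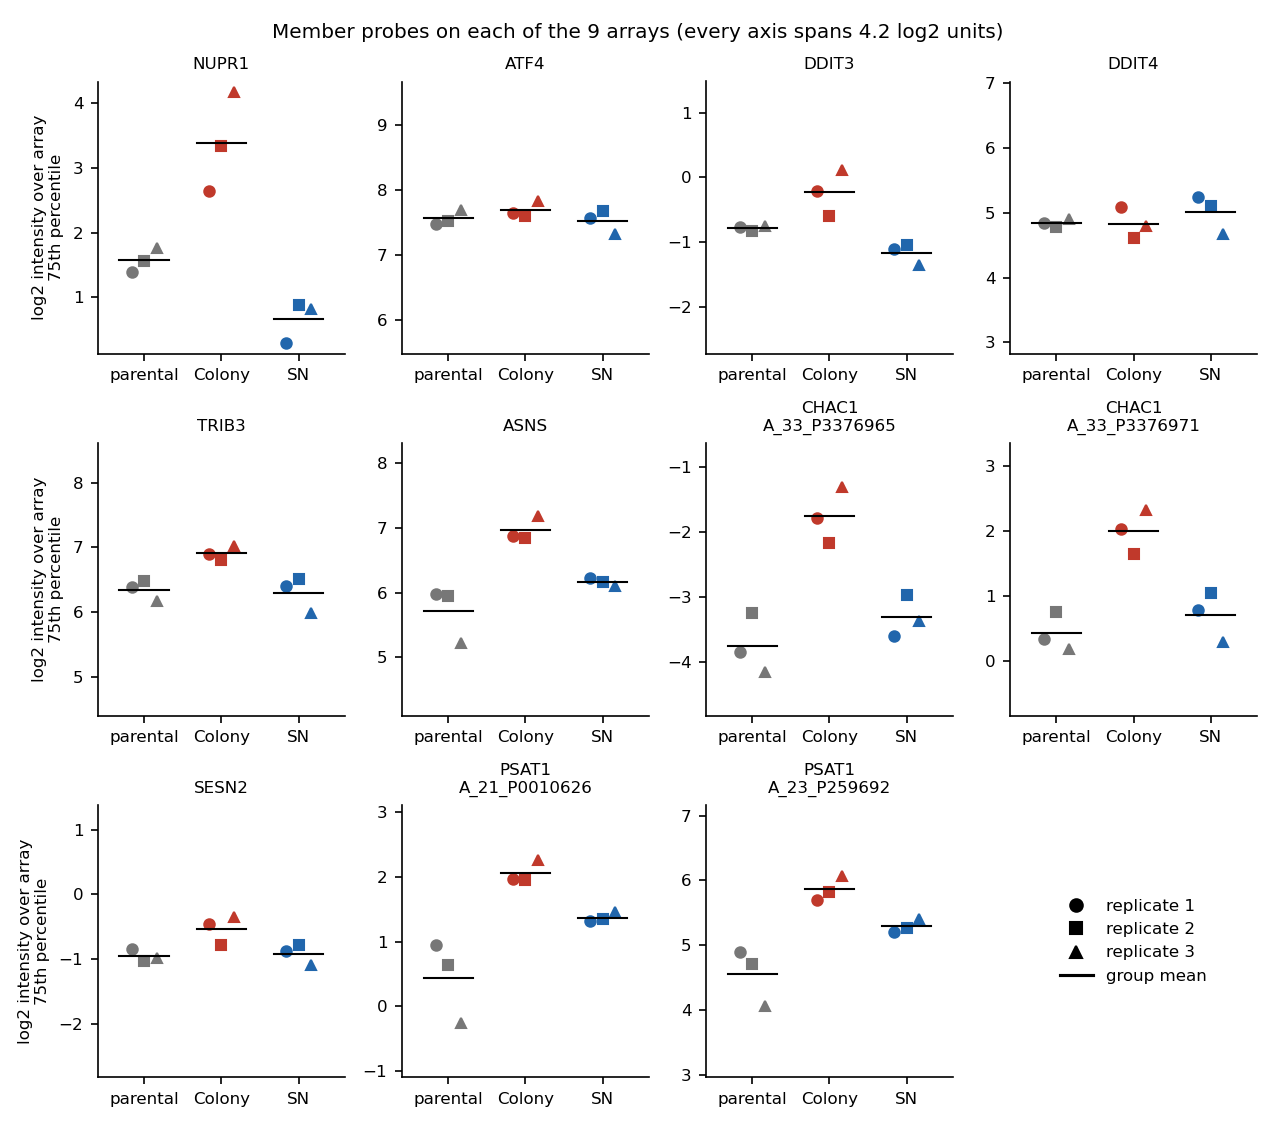
Each panel shows 1 probe. Points are single arrays by group on the x axis, black lines are group means, and the y axis is log2 intensity relative to the array's 75th percentile, over a span of equal size in every panel. NUPR1 runs from 0.29 to 4.17 with no overlap between groups, whereas the ATF4 and DDIT4 points of the 3 groups overlap.

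None of the feedback genes was called. TRIB3 encodes a pseudokinase that binds ATF4 and AKT and limits the response. It read 6.38, 6.48 and 6.17 in parental A549, 6.90, 6.81 and 7.03 in colony cells, and 6.40, 6.52 and 5.98 in SN cells. Colony arrays lay above all other arrays, yet the difference of 0.57 from parental A549 (SE 0.13, limma adjusted p = 0.0507) was under 2-fold and not called. SN cells differed from parental A549 by −0.04, with an interval from −0.51 to 0.42 (adjusted p = 0.912).

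SESN2 and DDIT4 both encode inhibitors of the growth kinase complex mTORC1. SESN2 read −0.84, −1.03 and −0.98 in parental A549, −0.46, −0.78 and −0.35 in colony cells, and −0.86, −0.78 and −1.09 in SN cells. The colony mean was 0.42 above parental A549 (SE 0.15, limma adjusted p = 0.125) without overlap, and colony replicate 2 and SN replicate 2 were equal to 2 decimals. DDIT4 read 4.84, 4.79 and 4.90 in parental A549, 5.09, 4.61 and 4.80 in colony cells, and 5.24, 5.10 and 4.67 in SN cells. Its groups overlapped, and the difference from parental A549 was −0.01 in colony cells (interval −0.38 to 0.36, adjusted p = 0.969) and 0.16 in SN cells (interval −0.28 to 0.61, adjusted p = 0.630).

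Of the enzymes of amino acid synthesis, ASNS and PSAT1 rose in colony cells. ASNS, which makes asparagine and carries the promoter match shown above, read 5.98, 5.95 and 5.22 in parental A549, 6.87, 6.85 and 7.19 in colony cells, and 6.23, 6.16 and 6.11 in SN cells. It was 1.25 higher in colony cells than in parental A549 (SE 0.24, limma adjusted p = 0.0403). SN cells were 0.45 above parental A549 (SE 0.24, adjusted p = 0.332), again without overlap, and 0.80 below colony cells. Parental replicate 3 was the lowest ASNS array, and without it the colony difference was 1.00 (adjusted p = 0.0304) and the SN difference 0.20. The call was lost without parental replicate 2 (adjusted p = 0.0956), without colony replicate 1, 2 or 3 (0.103, 0.135 and 0.134), with quantile normalization (0.0558), with no filter on dim probes (0.0727) and with the replicate block (0.141).

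PSAT1 encodes the aminotransferase of serine synthesis. Its brighter probe (A_23_P259692) read 4.90, 4.72 and 4.06 in parental A549, 5.70, 5.83 and 6.06 in colony cells, and 5.20, 5.26 and 5.41 in SN cells. The groups did not overlap, with parental A549 the lowest and colony cells the highest. PSAT1 was 1.31 higher in colony cells than in parental A549 by this probe (SE 0.25, limma adjusted p = 0.0373) and 1.61 higher by A_21_P0010626 (SE 0.33, adjusted p = 0.0428). In SN cells the differences from parental A549 were 0.73 and 0.93 (adjusted p = 0.165 and 0.174), with no overlap by either probe and no call. Parental replicate 3 was again the lowest, and without it the colony differences were 1.06 and 1.26 and the SN differences 0.48 and 0.58. Neither probe was called without parental replicate 2 or without any 1 of the colony arrays.

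CHAC1, an enzyme that degrades glutathione and a known target of ATF4 and DDIT3, was higher in colony cells by both probes. The call of each probe was lost under some settings. The brighter probe (A_33_P3376971) read 0.33, 0.75 and 0.18 in parental A549, 2.03, 1.65 and 2.32 in colony cells, and 0.78, 1.05 and 0.28 in SN cells. Colony arrays lay above all others, while SN and parental arrays overlapped. The difference of colony cells from parental A549 was 1.58 (SE 0.23, limma adjusted p = 0.0271), and that of SN cells was 0.28 (interval −0.35 to 0.91, adjusted p = 0.550). The dimmer probe (A_33_P3376965), which was not well above background on parental replicate 3, gave 2.00 for colony cells (SE 0.32, adjusted p = 0.0295) and 0.44 for SN cells (adjusted p = 0.419). The SN differences of the brighter and dimmer probe were 0.16 and 0.24 without parental replicate 3, and that of the brighter probe was 0.11 without SN replicate 2. The mean intensity of the dimmer probe in parental A549 was 18.8. With normexp background correction its colony difference was 0.73, under 2-fold. As for ASNS, neither CHAC1 call held without parental replicate 2 or without any 1 of the colony arrays. Every other member probe was well above background on all 9 arrays.

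Over the whole set, 6 of 11 probes, for 4 of 9 genes, were called higher in colony cells than in parental A549 and 0 lower. Of all 30864 probes tested, 1.71% were called higher and 3.7% were called in either direction. The arrays did not overlap for 9 of the 11 probes, each higher in colony cells, which 20.9% of all probes were. Since NUPR1 was chosen on these arrays, the count apart from it is 5 of 10 probes and 3 of 8 genes. Those 8 genes were also chosen with earlier results of these data known, so both counts are a description. The median difference over the 9 genes, with 1 probe a gene, was 0.57, against 0.03 over all 16419 genes tested. Leaving out single arrays changed the calls of members and of all probes together. Without parental replicate 2, or without colony replicate 1, 2 or 3, 0 of 11 member probes were called, and of all probes 1, 141, 0 and 85 were called in those 4 fits, in place of 1143. Without parental replicate 1, 4 member probes were called, and without parental replicate 3, 5 were. With replicate number as a block, 0 member probes and 0 of all probes were called, and with no filter on dim probes 1 member probe and 583 of all probes were called.

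In SN cells against parental A549, 0 of the 11 probes were called by limma, and 4 had an unadjusted p under 0.05. Those were the NUPR1, DDIT3 and both PSAT1 probes, the first 2 lower and the PSAT1 probes higher. Since the SN arrays took part in the choice of NUPR1, its place in these counts is a description. The background was 1.55% called and 21.6% with an unadjusted p under 0.05, of 32218 probes. The arrays did not overlap for 3 probes that were higher and 2 that were lower, against 16.8% and 15.2% of all probes. The median over the 9 genes was 0.04, against 0.09 over all 16774 genes. Both comparisons use the same 3 parental arrays.

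Colony and SN arrays did not overlap for 9 of the 11 probes (7 of 9 genes), each higher in colony cells, where 13.5% of 31746 probes and 16.3% of genes were higher without overlap. Nothing is read from this count, because the comparison was used to choose the set. ATF4 and DDIT4 were the overlapping genes. Each of the 9 probes was also higher in colony cells without SN replicate 3, the array on the other slide.

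**Figure D2:**
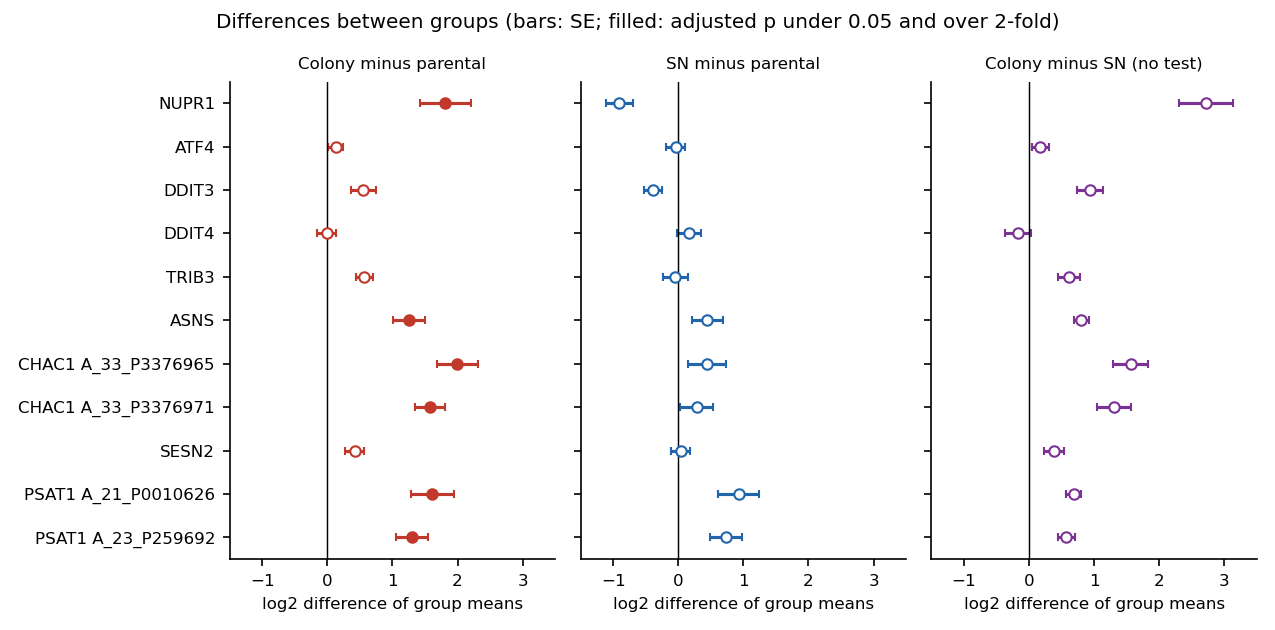
Log2 differences of group means for the 11 probes (x axis), with bars for the SE of the limma fit. Filled points pass the adjusted p and the 2-fold threshold. The 6 filled points are all in colony cells against parental A549, and the SN panel has none.

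Colony replicates were not alike in these genes. Colony replicate 3 was the highest of its group for 10 of the 11 probes, the exception being DDIT4, whereas 35.1% of 30858 probes were highest there. Colony replicate 2 was the lowest for 9 of the 11, against 27.4% of probes. The 11 probes share their array and RNA, so they are not separate observations of it. SN replicate 3 was the lowest SN array for 7 of 11 probes, against 47.6% of probes, and SN replicate 2 the highest for 7, against 37.4%. Parental replicate 3 was the lowest parental array for 6 of the 11, against 28.8% of probes. Those 6 include the ASNS probe and both probes of PSAT1 and CHAC1, which are 5 of the 6 probes called in colony cells.

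The wider pathway was described with 7 lists of 65 genes, of which 62 were tested in each comparison. The lists were chosen with earlier results of these data known, so their counts are a description. In colony cells against parental A549, 5 list genes were called higher and 0 lower. Of all genes tested, 2.08% were called higher and 1.81% lower. Of these calls 0 held without parental replicate 2, colony replicate 2 or colony replicate 3, or with the replicate block, and 1 (SLC6A9) held without colony replicate 1. SLC1A4 was not called with normexp background correction, and CBS was not called with no filter on dim probes. At any fold, 13 list genes passed the adjusted p upward and 1 downward, against 5.29% and 4.18% of all genes that passed it upward and downward. The arrays of 37 list genes lay above all parental arrays and those of 4 below, against 25.7% and 19.7% of all genes. Differences were above 0 for 49 list genes and below 0 for 13, where 52.7% of all genes were above 0. The median over the list genes was 0.40. In SN cells 0 list genes were called by limma, 14 had an unadjusted p under 0.05, 21 lay above all parental arrays, and the median was 0.12. The background there was 0.757% of genes called higher, 22.5% with an unadjusted p under 0.05 and 19.8% above all parental arrays.

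Amino acid transporters held 3 of the 5 genes called higher. SLC6A9, a glycine transporter, rose by 1.31 in colony cells (SE 0.10, limma adjusted p = 0.0148) and was 0.89 above parental A549 in SN cells without a call (adjusted p = 0.0626). SLC1A4, which carries small neutral amino acids, rose by 1.14 (SE 0.13, adjusted p = 0.0193). SLC1A5, the glutamine transporter, rose by 1.08 (SE 0.12, adjusted p = 0.0185). The median of the 8 transporters was 0.90 in colony cells and 0.37 in SN cells, and SLC38A2 was the only one below 0 in colony cells, at −0.43 (−0.24 without parental replicate 2). In SN cells SLC7A1 read 0.47. Colony cells stood 0.95 above SN cells for SLC7A11, the cystine transporter, and 0.85 for SLC1A4, both without overlap.

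Among 11 genes of amino acid and one-carbon synthesis, CBS, the first enzyme of transsulfuration, rose by 1.11 in colony cells (SE 0.17, limma adjusted p = 0.0282). In SN cells CBS differed from parental A549 by −0.09 (adjusted p = 0.735). CTH, the next enzyme of that route, read −0.92 in colony cells with overlap and no call (adjusted p = 0.214). The list median was 0.51 in colony cells and 0.04 in SN cells. In SN cells CTH read −0.45 and MTHFD2 0.31, without a call, and −0.27 and 0.17 without parental replicate 3. Without SN replicate 3 CTH read −0.22. CBS stood 1.20 and ALDH1L2 0.83 higher in colony than in SN cells without overlap.

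Of the 18 cytosolic aminoacyl-tRNA synthetases, which charge tRNAs, 17 had a difference above 0 in colony cells and 15 in SN cells, and the medians were 0.42 and 0.22. Of all genes tested, 52.7% and 59.2% were above 0. No synthetase was called. GARS1 (0.94, limma adjusted p = 0.0256) and WARS1 (0.88, adjusted p = 0.0259) were the largest, and 4 of the 18 passed the adjusted p at under 2-fold, where 5.29% of all genes passed it upward. In SN cells WARS1 read 0.66 and NARS1 0.46, and NARS1 0.24 without parental replicate 3. MARS1 stood 0.55 and GARS1 0.54 above SN cells in colony cells, without overlap. QARS1 was the exception in colony cells at −0.55.

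The eIF2 kinases and phosphatase regulators had 0 of 8 genes called. PPP1R15B, a phosphatase subunit that reverses eIF2 phosphorylation, read 0.43 in colony cells against parental A549, and the kinase EIF2AK3 read 0.39 there and 0.46 in SN cells. GCN1, which activates the kinase EIF2AK4, read 0.34 in SN cells. PPP1R15A was 0.67 and PPP1R15B 0.35 higher in colony than in SN cells. Of the 5 bZIP partners, ATF5 read 0.89 and ATF3 0.73 in colony cells, both without overlap and without a call (limma adjusted p = 0.0724 and 0.137), and 0.58 and −0.39 in SN cells. ATF3 read 0.47 without colony replicate 1 in the first comparison and −0.13 without SN replicate 3 in the second, where ATF5 read 0.37 without parental replicate 2. ATF3 stood 1.12 and CEBPG 0.60 above SN cells, without overlap.

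STC2, which encodes a secreted glycoprotein, had the largest rise of all list genes, by 2.12 in colony cells (SE 0.27, limma adjusted p = 0.0221). It read −2.05, −2.19 and −2.80 in parental A549, −0.02, −0.63 and −0.04 in colony cells, and −1.15, −1.55 and −1.28 in SN cells. The 3 groups did not overlap, colony cells stood 1.098 above SN cells, and the SN difference of 1.02 was not called (adjusted p = 0.0932). The other secreted and death effectors were not called. GDF15 read −0.08 in colony cells (−0.25 to 0.05 with 1 array left out) and VEGFA 0.13 (0.04 to 0.23). The death gene BBC3 read −0.75 there (limma adjusted p = 0.0472), under 2-fold. In SN cells BBC3 read −0.71, and VEGFA was 0.50 higher in colony than in SN cells. Among the paralogs, 0 of 6 tested were called. CHAC2 read 1.01 in colony cells and 1.06 in SN cells, without overlap with parental A549 and without a call (adjusted p = 0.120 and 0.171), and 0.65 and 0.70 without parental replicate 3, its lowest array. NUPR2 read −0.33 in colony cells and SESN1 0.51 in SN cells (0.33 without parental replicate 3). Between colony and SN cells, TRIB1 differed by 0.42 and SESN1 by −0.37.

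**Figure D3:**
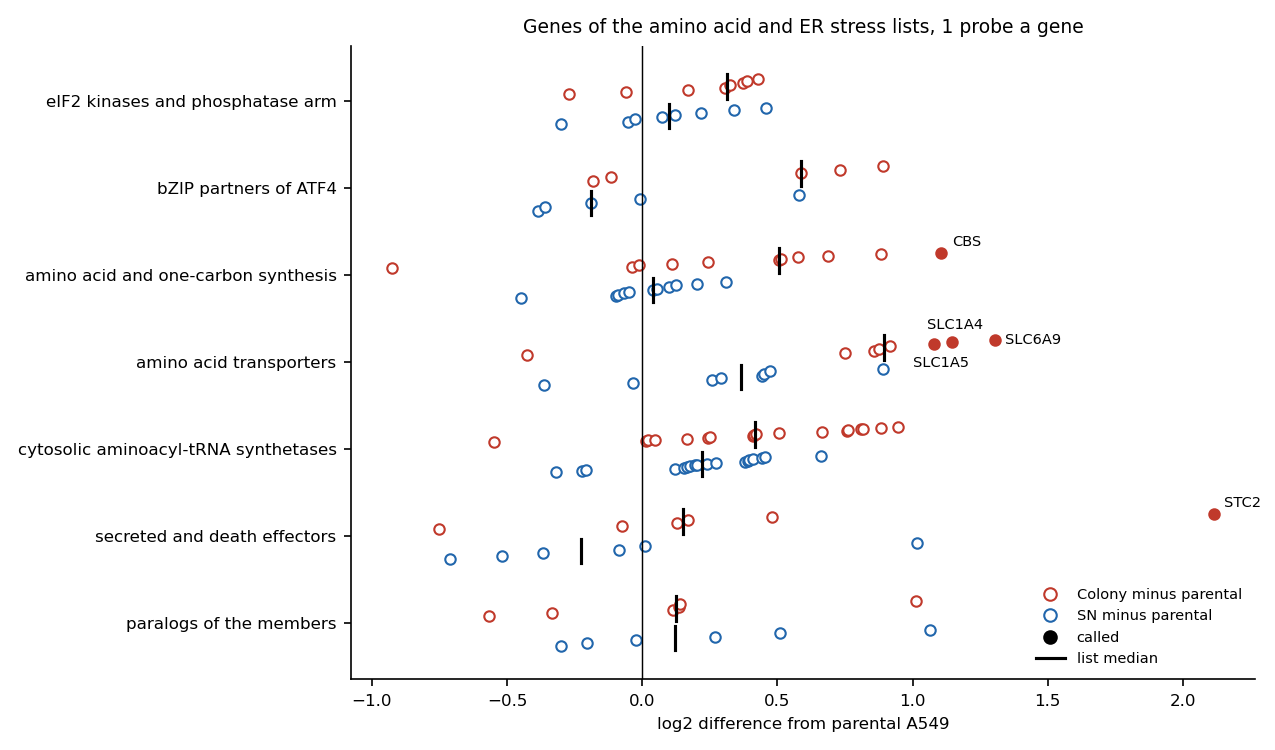
Each point is 1 gene, placed by its log2 difference from parental A549 (x axis) in the row of its list. Red is colony cells, blue is SN cells, filled points were called and black ticks are list medians. The 5 filled points (CBS, SLC6A9, SLC1A4, SLC1A5 and STC2) are all red and lie between 1.08 and 2.12.

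The core shown for ASNS and CHAC1 was also looked for in the 49 list genes with a promoter, and 17 held it (34.7%), against 4.46% of all genes. The lists were assembled from known stress response genes, so this share is a description of the lists. It was in 4 of 7 transporters, 7 of 14 tRNA synthetases and 3 of 5 bZIP partners. The transporter matches are shown because that list held most of the called genes, each with up to 10 flanking bases and the matched letters in capitals.
SLC1A4 (chr2:64989149-64989448, plus strand): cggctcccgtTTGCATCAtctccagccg
SLC1A5 (chr19:46784765-46785064, minus strand): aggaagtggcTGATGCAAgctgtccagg
SLC3A2 (chr11:62881449-62881748, plus strand): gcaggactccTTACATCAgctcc
SLC7A1 (chr13:29595639-29595938, minus strand): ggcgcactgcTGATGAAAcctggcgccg
The coordinates are those of the whole promoter windows. Of the 5 list genes called higher, SLC1A4 and SLC1A5 held the core, and the windows of CBS, SLC6A9 and STC2 did not. The 16 tested list genes with the core had a median difference of 0.74 in colony cells, with 13 above all parental arrays, and the 30 without it had a median of 0.31, with 17 above. Over all genes tested the median was 0.03 and 25.7% lay above all parental arrays. In SN cells the medians were 0.23 and 0.21.

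The genes whose values over the 9 arrays were most like those of NUPR1 were not members of the set. Likeness was the root mean square difference from NUPR1 after each probe was centred on its own mean. It was taken over 13942 named genes that were well above background throughout the 9 arrays. Probes were not scaled, so the size of a change counted as well as its pattern. The root mean square deviation from the own mean was 1.20 for NUPR1 and smaller for every other member, such as 0.43 for DDIT3. The closest were SNTB1 (0.52), FUT1 (0.57), KRT19 (0.64), SDR42E1 (0.64) and CSAG1 (0.65). These arrays include those that chose NUPR1. CHAC1 ranked 27, DDIT3 ranked 52 and ASNS ranked 141, followed by TRIB3 at 232, PSAT1 at 386 and SESN2 at 662, while ATF4 ranked 2258 and DDIT4 ranked 10817. KRT19 is also 1 of the 7 epithelial markers, whose median in colony cells lay below 0, as given above.

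**Figure D4:**
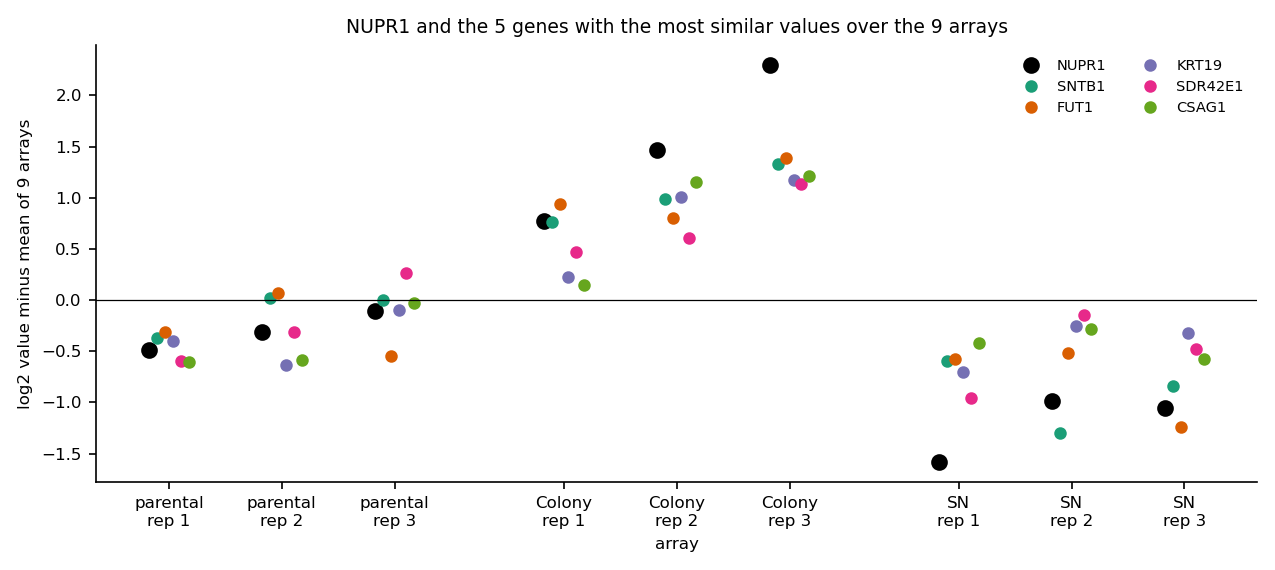
Log2 values of NUPR1 and the 5 genes closest to it, each minus its own mean over the 9 arrays (y axis), for every array (x axis, by group and replicate). All 6 genes are above 0 on the 3 colony arrays and below 0 on the 3 SN arrays.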

How the data were processed

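The authors hybridised RNA to SuperPrint G3 Human 8x60K v2 arrays and deposited, for each spot, its intensity after background subtraction, as Agilent Feature Extraction (version 11.5.1.1) gives it before any scaling across arrays. A second deposited table, on the log2 scale, equals the values used here up to 1 constant per array, within 0.001.

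Control spots (4259 of 62976) and spots flagged as outliers (357 to 484 an array) were left out, spots of a probe were averaged, and the array's 75th percentile was subtracted on the log2 scale. Of 50599 probes, 32065 carried a RefSeq accession and 30275 received a gene name. Comparisons were fitted in limma 3.58.1 (R 4.3.3, lmFit and eBayes) on the 6 arrays of both groups, over probes detected on at least 1 of them, with Benjamini-Hochberg adjustment over all of these. The filter and the fold threshold follow the study's methods. With 3 arrays a group, their number limits the precision.

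Lists used 1 probe a gene, the one with the highest mean over the arrays. ADM2 had no named probe, and FGF21 and TRIB2 were not detected. Named genes are the members, list genes called, the 2 list genes with the largest difference per list and comparison among those well above background on all 6 arrays, and the 5 genes most like NUPR1. ADH1C, TCN1, FMO5, SLC38A2, QARS1, GDF15 and the cell type markers were named after their values were seen. Members and lists were chosen with earlier results of these data known. The fit was tested on simulated data. Alternatives were normexp (offset 50, on median brightness, since the output used here has no mean brightness), quantile normalization, no filter, a stricter filter, blocks for slide and replicate number, all 9 arrays in 1 fit, the deposited log2 table, and each array left out. Promoters were searched for the named core on both strands. Protein sequences are not used here.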

Additional observations from a re-analysis of the deposited data

Results flagged for a closer look

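In 2 of the 73 probes of the members and lists that were looked at, every OSK-A549-Colony array lay above and every OSK-A549-SN array below all parental A549 arrays, so the differences from parental A549 ran in opposite directions. Without NUPR1, which was chosen for its rise over SN cells, this was 1 of 72 probes, and over all 28659 probes tested in the 3 comparisons 0.161% showed it. NUPR1 differed from parental A549 by 1.81 in colony cells and by −0.90 in SN cells, 2.72 apart. DDIT3 differed by 0.55 in colony cells and by −0.39 in SN cells, 0.94 apart. Both differences from parental A549 use the same parental arrays, and the difference between them was not tested, because colony against SN cells was the comparison that chose NUPR1.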

How the results depend on the processing

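The count of member probes called in colony cells against parental A549 (6) was 5 with normexp or quantile normalization, 6 with the stricter filter, all 9 arrays in 1 fit or the deposited log2 table, and 1 (CHAC1) with no filter on dim probes. It ranged from 0 to 5 when 1 array was left out, and the count of list genes called (5) ranged from 0 to 6. With replicate number as a block, 0 member probes and 0 list genes were called, as were 0 of all probes. Same-numbered colony and parental arrays did not deviate together (r = −0.01, −0.05 and −0.02), and those of SN and parental A549 had r = 0.15, −0.20 and −0.01, so the numbers were not shown to pair them. Same-numbered colony and SN arrays had r = 0.24, 0.07 and 0.14, each the best match of its array among colony and SN pairs. A parental array could match better, as SN replicate 2 and parental replicate 3 had r = 0.33. The labels give same-numbered colony and SN arrays the same passage but do not say that they share a culture. The SE of NUPR1 between these groups was 0.41 without pairing and 0.31 over the 3 same-numbered differences. In SN cells against parental A549, 0 member probes were called in any alternative, and the list count was 1 (STC2) with the stricter filter and 1 (STC2) with all 9 arrays in 1 fit, in place of 0.

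Of all probes, 1143 were called in colony cells against parental A549, but 333 with normexp, 583 without the filter, 1581 with all 9 arrays and 0 to 1362 with 1 array left out. The count for SN cells was 498, but 232 with normexp, 215 without the filter, 980 with the stricter filter, 1085 with all 9 arrays, 187 with slide as a block, 0 with the replicate block and 0 to 190 with 1 array left out. Member differences kept their sign in all alternatives, apart from DDIT4 in colony cells (9 of 13 kept it) and, in SN cells, ATF4 and TRIB3 (11 of 14 each) and SESN2 (12 of 14). The dimmer CHAC1 probe gave 0.73 for colony cells with normexp, in place of 2.00. Between colony and SN cells, 9 member probes did not overlap (8 to 10 under the alternatives), nor did 36 of 62 list genes, 31 higher and 5 lower (35 to 44 in either direction), where 16.3% of all genes were higher and 16.7% lower. Slide as a block could not be fitted for colony against parental A549, which all lay on slide 1, and the replicate block and the joint fit leave the mean differences of colony and SN cells as they are.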
